A study of Mus musculus with 29 samples.

Results

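The 50 genes described here flank Casp8 on mouse chromosome 1, and each of their probe sets was taken on its own rather than 1 probe set per gene. A probe set was a member when the platform annotation paired it with exactly 1 of the 50 symbols, which gave 69 probe sets with a mean tumour signal of at least 5 and 46 dimmer ones, together 0.255% of the 45037 tested, for 50 of 18193 measured genes. Between the outermost members, Slc39a10 at 56 places before Casp8 and Atic at 63 places after it in the order of measured genes (gene table of assembly GRCm38.p6), lie 120 measured genes, of which 17 members come before Casp8 and 33 after it. The 70 others, with 137 probe sets and with Casp8 itself among them, served for comparison. Of the members, 14 had 1 probe set, 16 had 2, 14 had 3 and 6 had 4 or more.

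Caspase-8 starts the protease cascade of death receptor signalling. A modified allele made in embryonic stem cells of one mouse strain and bred into another carries with it a stretch of chromosome from the first strain, and genes within that stretch keep the first strain's sequence. A 3' expression array reads each transcript through short probes, so a base that differs under the probes can alter hybridisation at a single probe set of a gene, while a change in transcript level is read by all probe sets that share the transcript. The question asked of the 50 genes was therefore whether any probe set differed between the caspase-8 genotypes, and whether probe sets of one gene differed unequally.

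All animals carried the TH-MYCN transgene, in which the tyrosine hydroxylase promoter drives MYCN and which gives rise to neuroblastoma, and all were labelled as strain 129X1/SvJ. The tumour samples were primary abdominal tumours, 7 from mice with wild type caspase-8 and 17 from mice with deficient caspase-8. The marrow samples were total bone marrow, 2 wild type and 3 deficient, of the same transgenic strain. The labels do not say how caspase-8 was made deficient, in which cells, on which strain the allele was made, the age of the mice, or whether any animal gave more than 1 sample. All p-values here therefore speak only of variation among the samples at hand. Each sample was read on 1 array, and the number of arrays limits the precision. Values are log2 signals.

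Correlations between arrays of a group over all probe sets ran from 0.972 to 0.993. Markers of the sympathoadrenal lineage, 9 measured of 10 listed, averaged 9.77 in wild type and 9.70 in deficient tumours against 4.32 and 4.34 in marrow. The 9 blood cell markers averaged 5.24 and 5.34 in tumours and 11.99 and 12.14 in marrow. In bulk tissue, fewer cells of a type and less RNA per cell cannot be told apart. The 69 member probe sets with a mean tumour signal of at least 5 came from 37 genes and were 60.0% of the members', against 48.3% of all probe sets. RMA compresses differences at low signal.

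Lancl1 encodes a LanC-like protein that binds glutathione. It was measured by a dim probe set, 1427012_at, and a bright one, 1427011_a_at. Its dim probe set fell in deficient tumours, and the bright one did not. At the dim probe set the wild type tumours ran from 6.19 to 7.03 with a median of 6.52, and the deficient tumours from 5.07 to 6.04 with a median of 5.45. Every wild type tumour lay above every deficient one. The means were 6.55 ± 0.25 (SD, n = 7) and 5.51 ± 0.28 (SD, n = 17), a log2 difference of -1.04 (SE 0.12, 95% interval -1.28 to -0.80, limma adjusted p = 0.000124). It was the 1 member probe set called, and the 1 of 45037 called over all genes, 0.00222%. It was also the 1 probe set of the array whose tumour groups did not overlap, again 0.00222%. Of all 45037 probe sets, 19 (0.0422%) had a difference at least as large in size. The call was known when the 50 genes were chosen, so it is the starting point of what follows and not an independent result.

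The bright Lancl1 probe set ran the other way. Wild type tumours lay between 9.51 and 9.81 with a median of 9.70, and deficient tumours between 9.61 and 10.36 with a median of 9.88, so the groups overlapped. Its difference of 0.19 (SE 0.077, 95% interval 0.031 to 0.35) did not pass (limma adjusted p = 0.9995). Both probe sets were above their marrow level in tumours, by 1.72 (SE 0.13) for the dim and 1.74 (SE 0.11) for the bright one.

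The distance between the probe sets within each array, bright minus dim, put the pair on a scale that is free of a change shared by both. It ran from 2.78 to 3.59 with a median of 3.15 in wild type tumours and from 3.61 to 4.91 with a median of 4.43 in deficient tumours. The highest wild type value, 3.59 in wild type tumour 1, lay just under the lowest deficient value, 3.61 in deficient tumour 17. The mean distance was 3.14 ± 0.27 (SD, n = 7) and 4.36 ± 0.32 (SD, n = 17), and it differed by 1.23 (SE 0.13, 95% interval 0.95 to 1.50, limma adjusted p = 1.85e-05). The distance holds the dim probe set itself, so its call is not independent of the known one.

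The sample titles run in a lower and a higher series of numbers, and the Lancl1 values were compared within each. In the lower series, 3 wild type tumours stood at 6.19, 6.44 and 6.64 at the dim probe set, and 7 deficient tumours ran from 5.07 to 5.93. In the higher series, 4 wild type tumours stood at 6.49, 6.52, 6.55 and 7.03, and 10 deficient ones ran from 5.19 to 6.04. That the groups did not overlap within a series follows from their not overlapping over all tumours. The differences were -0.995 in the lower and -1.07 in the higher series, and over all probe sets in those smaller fits neither was called (limma adjusted p = 0.9999 and 0.0867). At the bright probe set, wild type tumours of the lower series ran from 9.51 to 9.79 and deficient ones from 9.85 to 10.06. The difference there was 0.26. In the higher series it was 0.14, and the groups overlapped. The distance between the probe sets differed by 1.25 in the lower series (limma adjusted p = 0.526) and by 1.21 in the higher one (limma adjusted p = 0.0101). Leaving out any 1 tumour kept the call of both measures.

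Other quantities also differed between the tumour groups. RNA quality, read as the gap between 3' and 5' control probe sets of Actb and Gapdh, averaged 0.616 ± 0.145 (SD, n = 7) over wild type tumours and 0.761 ± 0.175 (SD, n = 17) over deficient ones. With this gap as a covariate the dim Lancl1 probe set differed by -1.07 (limma adjusted p = 0.000547). The mean of 6 endothelial markers was 5.35 ± 0.48 (SD, n = 7) over wild type tumours, which ran from 4.44 to 5.95, and 5.84 ± 0.43 (SD, n = 17) over deficient tumours, which ran from 4.86 to 6.28, with 4 of the 6 genes at a mean of 5 or more in both groups. The part of endothelial, muscle or fat cells in the Lancl1 result was not tested, and neither was a base difference under its probes.

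In marrow the dim Lancl1 probe set stood near the low end of the scale in both genotypes. It was at 4.25 and 4.38 in wild type marrow and at 4.19, 4.26 and 4.45 in deficient marrow, so the groups overlapped and differed by -0.013 (SE 0.18). The bright probe set was at 7.37 and 8.09 in wild type and at 8.08, 8.28 and 8.73 in deficient marrow, again with overlap. Its difference was 0.63. The distance between them was 2.995 and 3.84 in wild type and 3.81, 3.83 and 4.54 in deficient marrow. It differed by 0.64 (SE 0.34, 95% interval -0.16 to 1.45), which did not pass (limma adjusted p = 0.9995). The sign was that seen in tumours, but in marrow the distance came from the bright probe set. Sex and genotype cannot be told apart in these marrow samples, as the values of Xist given below show. In tumours it came mainly from the dim one, at -1.04 against 0.19 for the bright one. The genotype difference of the dim probe set in tumours minus that in marrow was -1.02 (SE 0.25, limma adjusted p = 0.102), so a difference between the tissues was not shown.

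**Figure D1:**
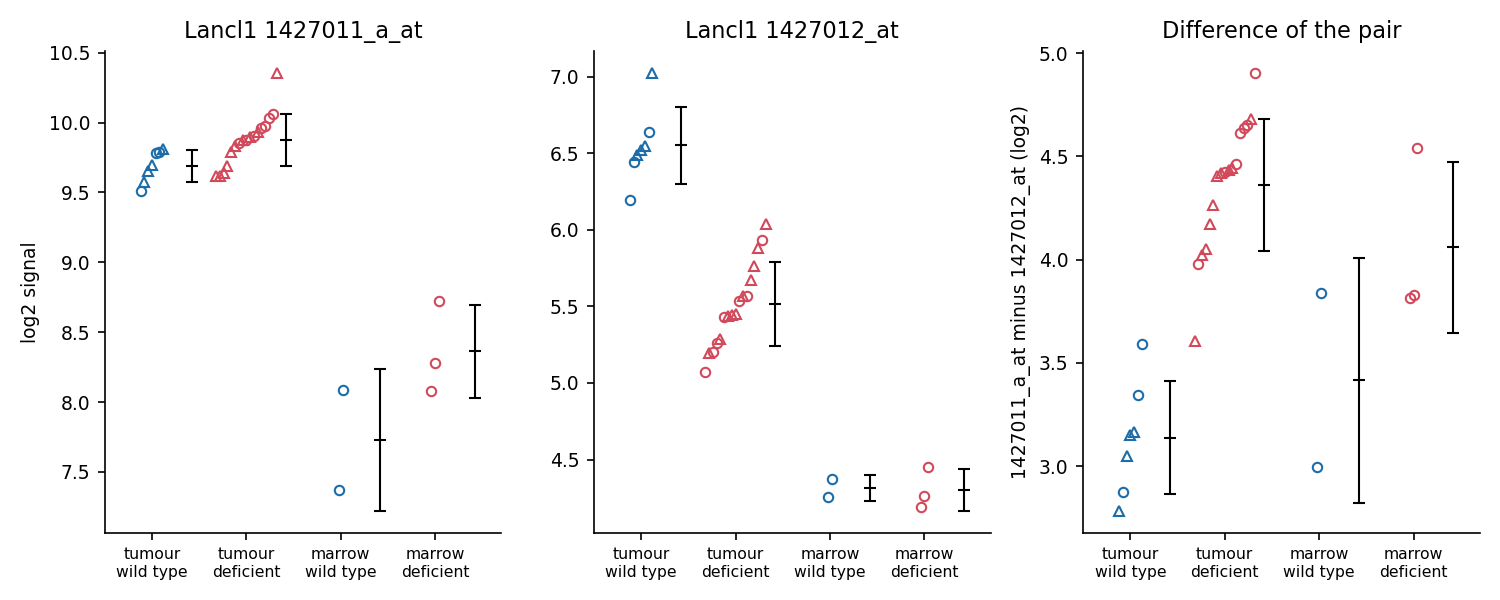
Log2 signal of the bright (left) and dim (middle) Lancl1 probe set and the distance between them in the same array (right), for each tumour and marrow sample, with the mean and SD beside each group. Circles are tumours of the lower and triangles of the higher title number series. Marrow samples are drawn as circles, although their titles are of the higher series. At the dim probe set all 7 wild type tumours, from 6.19 up, lie above all 17 deficient ones, up to 6.04.

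The genes next to Lancl1 in the order were examined for a difference between the tumour genotypes. Myl1, Cps1 and Erbb4 have 1 probe set each, so they cannot show probe sets moving apart. Myl1, 1 place before Lancl1, encodes a myosin light chain of skeletal muscle, and Cps1, 1 place after it, the first enzyme of the urea cycle. The Cps1 probe set ran from 2.88 to 3.39 in wild type and from 3.01 to 3.61 in deficient tumours, low in both, and differed by 0.048 (SE 0.075, limma adjusted p = 0.9995). Acadl, a fatty acid dehydrogenase of mitochondria 2 places before Lancl1, has 2 probe sets. The brighter one differed by 0.18 (SE 0.24) and the other by 0.090. Erbb4, a receptor tyrosine kinase of the epidermal growth factor receptor family, lies 2 places after Lancl1. Its single, dim probe set differed by 0.11.

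The Myl1 probe set had the second largest member difference, -0.74 (SE 0.69, limma adjusted p = 0.9995), and the widest interval, -2.15 to 0.68. Its wild type tumours ran from 2.71 to 8.15 with a median of 3.05, and its deficient tumours from 2.78 to 8.50 with a median of 3.16. The medians thus lay in the opposite order to the means. Myl1 was high in 3 tumours, at 8.50 in deficient tumour 11, 8.15 in wild type tumour 3 and 6.98 in wild type tumour 7. The mean of 10 skeletal muscle markers was 9.50, 8.10 and 7.28 in the same 3 tumours, and the next highest tumour, deficient tumour 15, stood at 5.10 with Myl1 at 4.40. Without wild type tumour 3 the Myl1 difference was -0.095.

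**Figure D2:**
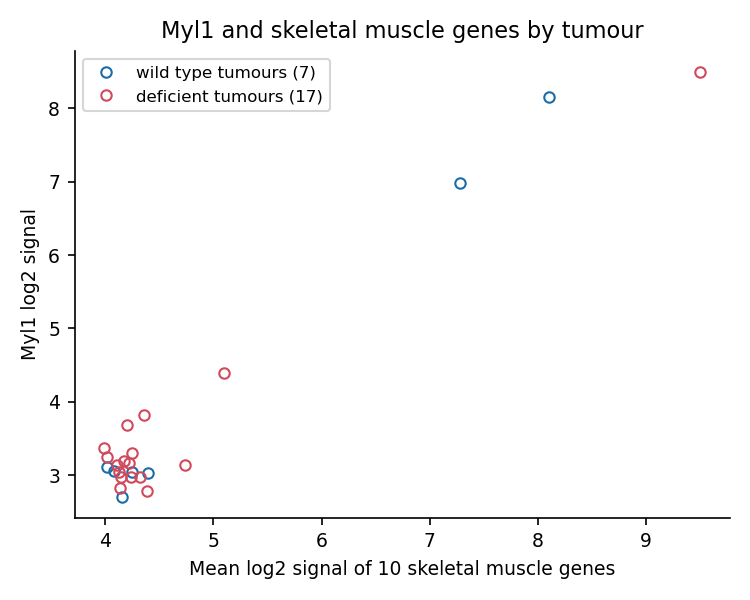
Myl1 log2 signal against the mean log2 signal of 10 skeletal muscle marker genes in each of the 24 tumours. Deficient tumour 11 and wild type tumours 3 and 7 stand apart, with Myl1 between 6.98 and 8.50 and a muscle mean between 7.28 and 9.50.

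Apart from Lancl1, no member probe set passed the test between the tumour genotypes. At an unadjusted p under 0.05 there were 4, or 3.48% of the member probe sets, against 3.18% of all, and both probe sets of Lancl1 were among them. The median member difference was 0.030 against 0.001 over all probe sets, and 67 members (58.3%) were above 0 against 50.5%. The 95% interval lay within -1 to 1, that is within a 2-fold difference of signal, for 113 member probe sets (98.3%) against 98.7% of all. The 2 exceptions were the dim Lancl1 probe set and Myl1.

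Genes of mitochondria and metabolism gave 21 probe sets of 12 genes, 0 of them called, with a median difference of 0.048. The largest belonged to Aox1, an aldehyde oxidase, at 0.39 (SE 0.21, p = 0.0734, limma adjusted p = 0.9995). Its tumours ran from 3.13 to 4.73 in wild type and from 3.66 to 5.33 in deficient samples, overlapping and low in both. The smallest unadjusted p of this group belonged to Coq10b, a coenzyme Q binding protein, whose probe set 1428487_s_at differed by 0.31 (SE 0.12, p = 0.0204, limma adjusted p = 0.9995). Its wild type tumours ran from 5.42 to 6.58 and its deficient ones from 6.01 to 6.80, so the groups overlapped. Without wild type tumour 6 the difference was 0.19, in the lower title number series -0.018 and in the higher one 0.54. At the other end of the group Cyp20a1, a cytochrome P450 without a settled substrate, was at -0.18 for 1 of its 3 probe sets, at -0.043 without wild type tumour 6 and -0.31 without wild type tumour 3, and with the sign turned in the lower series, at 0.36. The complex I subunits Ndufs1 and Ndufb3, the isocitrate dehydrogenase Idh1, the purine synthesis enzyme Atic, the pentose phosphate epimerase Rpe and the chaperonins Hspd1 and Hspe1 lay between these values.

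Receptors, kinases and other signalling genes gave 19 probe sets of 9 genes, 0 of them called, with a median difference of 0.024. The highest was Fzd5, a frizzled receptor for Wnt ligands, at 0.30 (SE 0.22), which was 0.18 without wild type tumour 4, and the lowest Stk17b, a kinase abundant in lymphocytes, at -0.19 (SE 0.25) for the dimmest of its 3 probe sets. Without wild type tumour 1 it was 0.090, and the other Stk17b probe sets were at 0.024 and -0.031. Pikfyve, a lipid kinase of endosomes, had the smallest unadjusted p of the group at -0.15 (SE 0.088, p = 0.0957, limma adjusted p = 0.9995), and without wild type tumour 4 it was at -0.065. That probe set was low, from 3.12 to 3.91 in wild type and from 2.91 to 3.58 in deficient tumours. Erbb4, the type 2 bone morphogenetic protein receptor Bmpr2, the frizzled receptor Fzd7, the splicing kinase Clk1, the pseudokinase Stradb and the phospholipase-like Plcl1 lay between.

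Genes of the nucleus, RNA and translation gave 36 probe sets of 13 genes, 0 of them called, with a median difference of 0.030 and a range from -0.19 at Wdr12, a ribosome biogenesis factor, to 0.16 at Creb1, the cyclic AMP response factor. Creb1 had 6 probe sets, the most of any member, at differences from -0.029 to 0.16. Its brightest one, 1452901_at, ran from 9.82 to 10.15 in wild type and from 9.71 to 10.40 in deficient tumours and differed by 0.13 (SE 0.072, p = 0.0799, limma adjusted p = 0.9995), and by -0.029 in the lower title number series. The Wdr12 value was -0.32 without wild type tumour 6 and -0.12 without wild type tumour 5. The splicing factor Sf3b1, the origin recognition subunit Orc2, the elongation factor Eef1b2, the snoRNA binding protein Nop58, the transcription factor Klf7 and the BRCA1 partner Bard1 belong to the same group, with Bzw1, Gtf3c3, Ino80d, Ppil3 and Nif3l1.

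Genes of the cytoskeleton, polarity, adhesion and trafficking gave 20 probe sets of 8 genes, 0 of them called, with a median difference of 0.0068. Apart from Myl1 they ran up to 0.24 at Pard3b, a cell polarity protein. Trak2, which links mitochondria to kinesin motors and is the first gene after Casp8, had a bright probe set at 8.37 to 8.69 in wild type and 8.51 to 9.37 in deficient tumours. The groups overlapped, and the difference was 0.17 (SE 0.08, p = 0.0431, limma adjusted p = 0.9995), while the dim Trak2 probe set was at -0.0092. Raph1, an actin regulator also called lamellipodin, had all 3 probe sets above 0, the one of smallest p at 0.17 (SE 0.084, p = 0.0578, limma adjusted p = 0.9995), with tumours from 8.21 to 8.78 in wild type and 8.39 to 9.03 in deficient samples. Map2, Abi2, Mpp4 and Adam23 completed the group.

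The lymphocyte genes were the T cell surface receptors Cd28, Ctla4 and Icos and the transcription factor Ikzf2. They gave 9 probe sets, 0 of them called, with differences from -0.078 to 0.09 and a median of -0.015. The mean of 8 T cell markers was 3.96 in wild type and 3.87 in deficient tumours, with 0 of the 8 at a mean of 5 or more in either, so these markers were read near the low end of the scale. The remaining 4 genes, Lancl1, the ubiquitin ligase Hecw2, the zinc transporter Slc39a10 and the ankyrin repeat gene Ankrd44, gave 10 probe sets, of which the dim Lancl1 one was called. The other 9 had a median of 0.031.

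**Figure D3:**
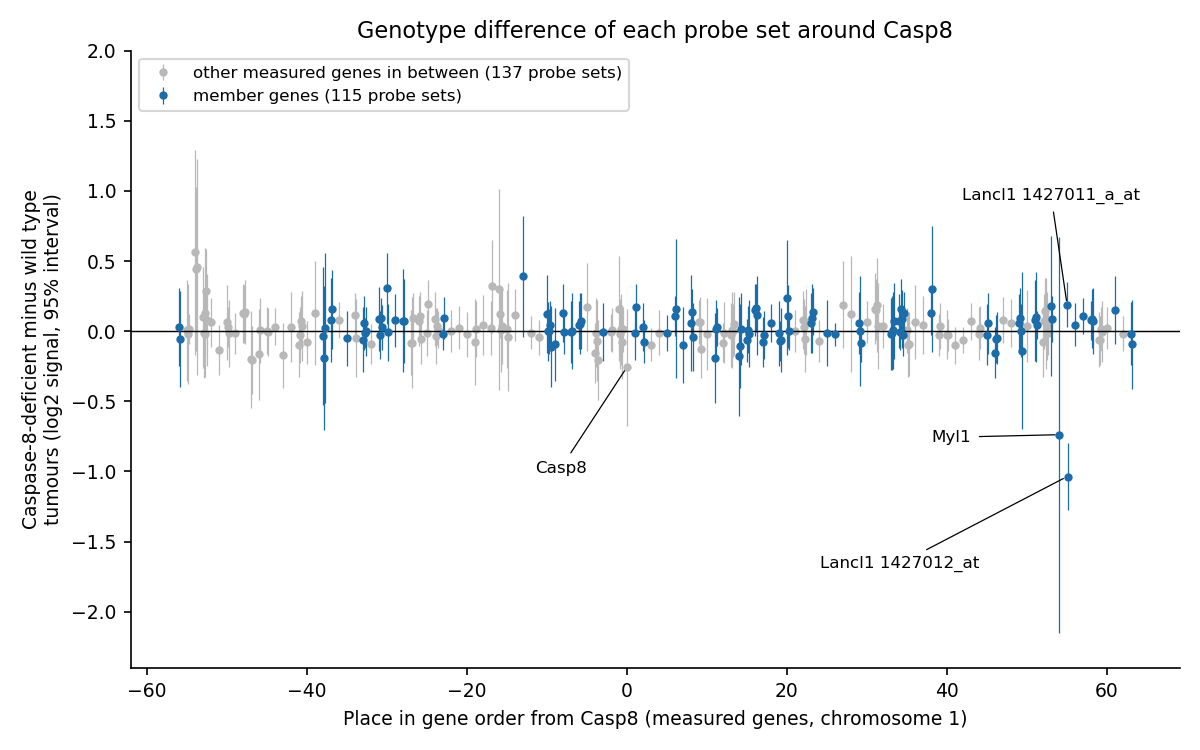
Difference in log2 signal between deficient and wild type tumours, with its 95% interval, for each probe set by the place of its gene in the order of measured genes from Casp8. Probe sets of 1 gene are shifted sideways so that they can be seen. The dim Lancl1 probe set, at -1.04, is the 1 called, and Myl1, at -0.74, has the widest interval.

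Of the 137 probe sets of the genes between the members, 0 passed limma, 1 had an unadjusted p under 0.05 and the median difference was 0.013. The 4 of smallest p were Mars2, a mitochondrial methionyl tRNA synthetase, at 0.19 (p = 0.0308), Nabp1, a single-stranded DNA binding protein, at 0.29, Maip1 at 0.32 and the inositol phosphatase Inpp1 at -0.21 for 1 probe set. Casp8 had a single probe set with 1 symbol. It ran from 5.23 to 6.91 with a median of 5.65 in wild type and from 4.68 to 6.41 with a median of 5.70 in deficient tumours, and the groups overlapped. Its difference was -0.26 (95% interval -0.67 to 0.16), and without wild type tumour 1 it was -0.085. Where this probe set lies relative to the altered part of the gene was not analysed here. The 5 probe sets of Cflar, which encodes an inhibitor of caspase-8 and lies next to it, were between -0.077 and 0.16.

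Unequal change among the probe sets of 1 gene was tested for the 36 members with 2 or more. Each probe set was set against the mean of the gene's other probe sets in the same array, which gave 85 member rows of 21067 over the array, with 1 row for a gene of 2 probe sets. The Lancl1 pair was the 1 member row called and the 1 of 21067 called, 0.00475%. That row holds the dim probe set whose call was known when the genes were chosen. This call and the Lancl1 spread given next are therefore not independent results. At an unadjusted p under 0.05 there were 2 member rows, Lancl1 and Coq10b, against 3.23% of all rows.

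The spread between the highest and the lowest genotype difference of a gene's probe sets was 1.23 for Lancl1, the fourth largest of 9010 genes with 2 or more probe sets. It had a median of 0.104 over the 36 members and 0.107 over all 9010. The next members were Coq10b at 0.31, Pard3b at 0.24, Bzw1, a translation regulator, at 0.23 and Map2 at 0.23. For Coq10b the probe set 1428487_s_at minus 1460510_a_at differed by 0.31 (SE 0.11, p = 0.00746, limma adjusted p = 0.999999), by -0.062 in the lower title number series and by 0.59 in the higher one. The next smallest p-values belonged to Trak2, where the dim minus the bright probe set was at -0.18 (p = 0.125), to Sf3b1 1418562_at at -0.097 (p = 0.136) and to Idh1 1419821_s_at at -0.082 (p = 0.163), and none of the 3 passed. The letters in a probe set's name mark how specific its probes are, and of the members' 96 had no letter, 11 had the _a_ of probes shared by transcripts of 1 gene, and 5 and 3 had the _s_ and _x_ of probes that may also read other genes. The bright Lancl1 probe set and Coq10b 1460510_a_at carry _a_, and Coq10b 1428487_s_at carries _s_.

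**Figure D4:**
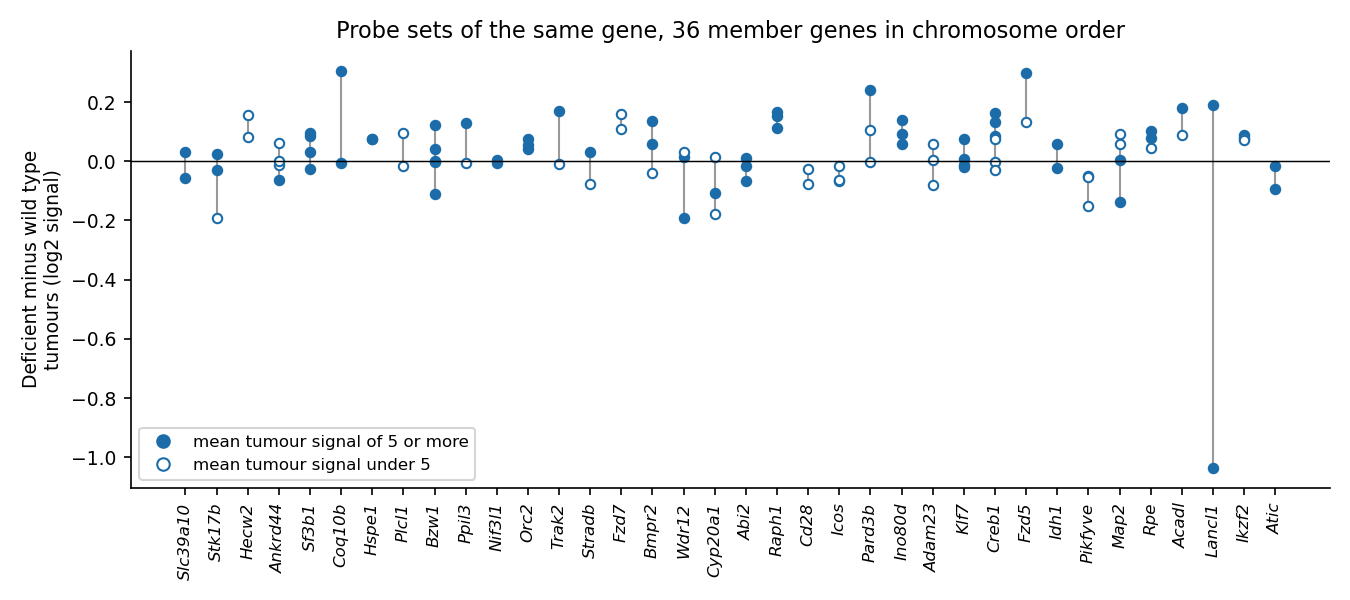
Difference in log2 signal between deficient and wild type tumours for every probe set of the 36 member genes with 2 or more, in chromosome order, with a line joining the probe sets of a gene. Filled points have a mean tumour signal of 5 or more. The Lancl1 line spans 1.23, and the next longest, Coq10b, 0.31.

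In bone marrow the 50 genes were compared between 2 wild type and 3 deficient samples. No member probe set passed limma, against 9 of 45037, 0.02%, and 5 (4.35%) had an unadjusted p under 0.05 against 3.37% of all. The genotype groups did not overlap at 20 member probe sets (17.4%), against 17.3% of all. The marrow groups were also split by Xist, the RNA of the inactive X chromosome, at 5.11 and 6.20 in wild type and 11.6 to 12.2 in deficient samples, so sex and genotype cannot be told apart here.

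The 5 member probe sets of smallest p in marrow are given as values. Sf3b1 1418561_at was at 6.45 and 6.74 in wild type and at 6.98, 7.09 and 7.62 in deficient marrow, a difference of 0.64 (SE 0.24, p = 0.035, limma adjusted p = 0.9997). Coq10b 1428487_s_at, which also had a small p in tumours, was at 6.96 and 7.02 against 7.24, 7.56 and 7.69, a difference of 0.50 (SE 0.20, p = 0.0387). Its other probe set was at -0.20 (SE 0.22), so the Coq10b pair differed in sign in marrow. Stk17b 1450997_at was at 10.12 and 10.52 against 10.84, 10.90 and 12.09, a difference of 0.95 (SE 0.40), which was 0.54 without deficient marrow 3. Ikzf2 1437542_at differed by 0.45, which was 0.29 without wild type marrow 1, and Bzw1 1450846_at by -0.43. In these 5 probe sets, chosen for their small p, the genotype groups did not overlap, as at 17.3% of all probe sets. Of the 85 within-gene rows 0 passed limma in marrow, against 0.00949% of 21067, and 7 had an unadjusted p under 0.05 against 4.35%.

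The genotype difference in tumours was set against that in marrow in a model of all 4 groups. Since the marrow genotypes were also split by Xist, sex and genotype cannot be told apart in the marrow part of this contrast. No member probe set passed limma, against 93 of 45037, 0.206%, and 6 (5.22%) had an unadjusted p under 0.05 against 7.52%. After Lancl1, the smallest p belonged to Cd28 1417597_at at -1.01 (SE 0.28, limma adjusted p = 0.18). It was at 3.28 and 3.47 in wild type and at 3.67, 4.11 and 5.14 in deficient marrow, and at most 3.18 in any tumour. Without wild type marrow 2, which leaves 1 wild type marrow sample, 2 probe sets of Raph1 were at -1.22 and -1.06. In that fit 1 probe set each of Stradb, Ankrd44 and Ikzf2 was at -1.20, -1.09 and -1.38. These 5 were picked by their values in that fit. Without deficient marrow 2 the Cd28 probe set was called, at -1.33, and without deficient marrow 3 it was at -0.59 (limma adjusted p = 0.444). Of the 137 other probe sets 1 passed, Ino80dos, an antisense transcript of the member Ino80d, at -0.88 (SE 0.18, limma adjusted p = 0.0269). It was between 3.02 and 3.56 in tumours, at 3.12 and 3.17 in wild type marrow and at 3.61, 3.96 and 4.30 in deficient marrow, and the 3 Ino80d probe sets themselves were not called.

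Tumours and marrow differed at most of the member probe sets. All marrow samples have titles of the higher number series, while tumours have titles of both. The tissue fit held no term for the series, so its part in these differences was not tested. Of the member probe sets 89 (77.4%) were called, against 70.3% of all, with 49 (42.6%) higher in tumours against 29.6% and 40 (34.8%) higher in marrow against 40.8%. Over all probe sets the median difference was -0.11, which is the shift that the values below are read against, and over the members it was 0.10. A called difference of at least 1 was found at 43 member probe sets (37.4%), 27 higher in tumours and 16 in marrow, against 24% of all. The tissues did not overlap at 45 (39.1%), against 30.1%.

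The 6 members with the largest excess in tumours were Map2, Abi2, Raph1, Hecw2, Wdr12 and Slc39a10. Map2, the microtubule-associated protein of dendrites, ran from 10.16 to 10.86 over the 24 tumours at 1434194_at and was at 3.02 and 3.08 in wild type and 2.86, 3.15 and 3.41 in deficient marrow, with no overlap. The difference was 7.42 (SE 0.11, limma adjusted p = 1.93e-30), and the other Map2 probe sets differed by 3.63, 1.05 and 0.60. Abi2, a subunit of the WAVE complex that starts actin branching, ran from 9.64 to 10.29 in tumours and from 6.29 to 6.86 in marrow, a difference of 3.38 (SE 0.091). Raph1 ran from 8.28 to 9.04 in tumours and was at 4.83 and 6.95 in wild type and 6.06, 6.24 and 6.29 in deficient marrow, a difference of 2.50 (SE 0.17). Leaving out wild type marrow 1 gave 1.97 and leaving out wild type marrow 2 gave 3.03, both called. Hecw2 1455150_at at 1.86, Wdr12 1417270_at at 1.85 and Slc39a10 1433751_at at 1.76 followed, each with no overlap between the tissues. The other probe sets of Wdr12 were at 0.52 and -0.21, that of Hecw2 at 0.76 and that of Slc39a10 at 1.70. In the cytoskeletal group as a whole 11 of 20 probe sets were called higher in tumours and 2, both of Trak2, lower. Over all probe sets the shares called higher and lower were 29.6% and 40.8%.

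The 6 members with the largest excess in marrow were Stk17b, Acadl, Trak2, Stradb, Ankrd44 and Ikzf2. Stk17b was lower in tumours at all 3 of its probe sets, with differences of -3.20 (SE 0.30), -3.05 and -2.67. At 1450997_at it ran from 6.32 to 9.43 in tumours, with wild type tumour 1 highest, and from 10.12 to 12.09 in marrow, with no overlap. Acadl ran from 6.23 to 8.79 in tumours and from 9.75 to 10.29 in marrow, a difference of -2.73 (SE 0.26) at 1448987_at, and its other probe set, 1448988_at, differed by -0.38. Ankrd44 differed by -2.42 (SE 0.13) at 1434856_at, and its other probe sets by -1.91, -0.18 and -0.0053, the last of them not called (limma adjusted p = 0.966). Ikzf2 differed by -1.75 (SE 0.11) at 1437542_at and by -1.62 and -0.31 at its other probe sets. All 9 probe sets of the lymphocyte group were lower in tumours, against 40.8% of all probe sets. In the other groups the calls went both ways, with 9 higher and 8 lower of 21 for mitochondria and metabolism. They were 4 and 9 of 19 for receptors and kinases, and 19 and 9 of 36 for the nucleus, RNA and translation. These counts stand against 29.6% called higher and 40.8% called lower of all probe sets.

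Trak2 and Stradb, the first and second genes after Casp8, lie head to head, and both were lower in tumours. Stradb encodes a pseudokinase that activates the kinase LKB1. The bright Trak2 probe set ran from 8.37 to 9.37 in tumours and was at 11.09 and 11.34 in wild type and 11.22, 11.28 and 11.45 in deficient marrow, a difference of -2.62 (SE 0.09, limma adjusted p = 4.6e-21). Stradb ran from 7.78 to 8.73 in tumours and from 9.94 to 10.22 in marrow at its brighter probe set, a difference of -2.07 (SE 0.093), and differed by -2.60 at the dimmer one. The tissues did not overlap at either gene. The promoter window of Trak2 in RefSeq, GRCm38.p6, chr1:58973433-58973732 on the minus strand, is shown because it holds both starts, 40 bases apart, and the capitals mark the 41 bases from the Stradb start to the Trak2 start:

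Trak2: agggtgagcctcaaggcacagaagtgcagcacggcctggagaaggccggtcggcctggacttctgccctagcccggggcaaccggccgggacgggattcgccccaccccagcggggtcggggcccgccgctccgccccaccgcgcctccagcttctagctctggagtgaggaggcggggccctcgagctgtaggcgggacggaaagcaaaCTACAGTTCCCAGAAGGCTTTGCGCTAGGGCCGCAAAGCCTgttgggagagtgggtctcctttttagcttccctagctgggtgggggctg

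The pair Hspd1 and Hspe1, which encode the mitochondrial chaperonin and its co-chaperonin, also start close together, 95 bases apart. Hspd1 ran from 11.73 to 12.72 in tumours and was at 10.34 and 10.82 in wild type and 10.28, 10.57 and 12.17 in deficient marrow, a difference of 1.45 (SE 0.17, limma adjusted p = 1.5e-08). The tissues overlapped through the highest deficient marrow sample. Hspe1 differed by 0.33 (SE 0.19, limma adjusted p = 0.114) at its brighter probe set and by 0.61 (SE 0.22, limma adjusted p = 0.0139) at the other. The difference between the genes was not tested. The other close pairs were Idh1 with Pikfyve, 206 bases apart, at 0.61 and 0.10, and Ppil3 with Nif3l1, 335 bases apart, at 0.27 and 1.47.

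Because MYCN binds E-box sequences and all animals carry the transgene, the promoter windows were searched for CACGTG, which reads the same on both strands. It was present in 4 of the 42 member genes with a window, Stk17b, Coq10b, Hspd1 and Atic, and in 7.15% of 32851 windows of the same length. Members were counted by gene and the background by window, and an excess among the members was not tested. Of these 4 genes, Stk17b and Coq10b were lower in tumours than in marrow, Coq10b with differences of -0.96 and -1.24, and Hspd1 and Atic were higher, Atic by 0.70 and 0.74. The Hspd1 window (RefSeq, GRCm38.p6, chr1:55088194-55088493, minus strand) is shown with the motif in capitals:

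Hspd1: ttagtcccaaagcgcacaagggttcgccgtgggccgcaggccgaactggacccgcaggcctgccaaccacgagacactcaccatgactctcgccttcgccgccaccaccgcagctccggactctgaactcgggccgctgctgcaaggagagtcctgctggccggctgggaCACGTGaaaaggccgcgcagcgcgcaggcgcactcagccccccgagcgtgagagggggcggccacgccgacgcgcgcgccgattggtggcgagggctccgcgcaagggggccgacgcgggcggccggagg

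**Figure D5:**
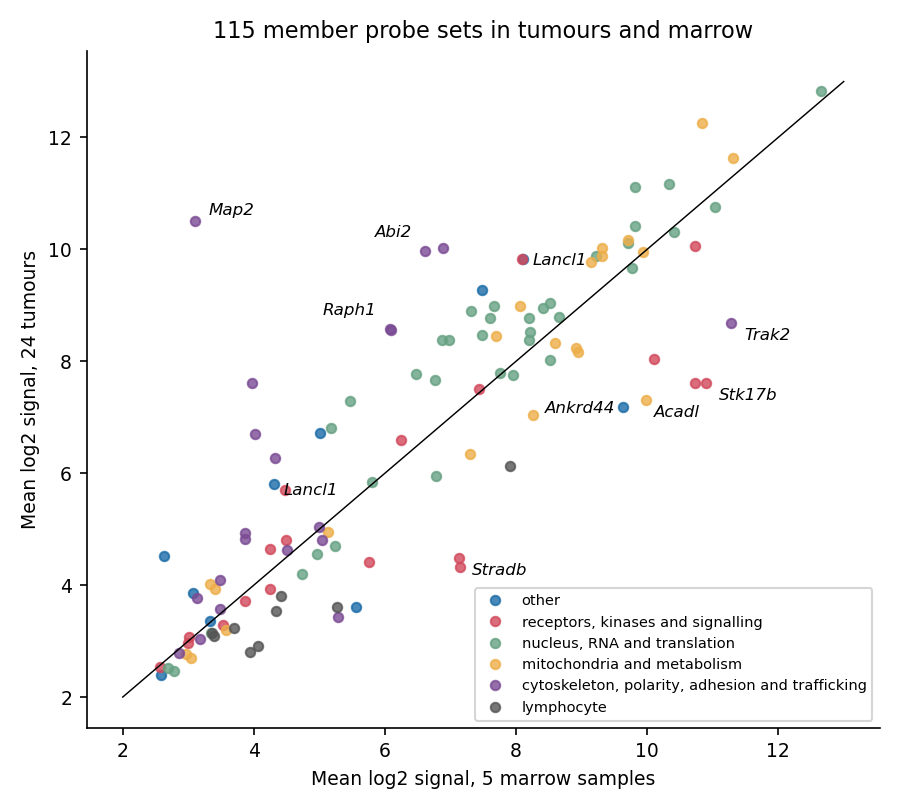
Mean log2 signal of each member probe set in 24 tumours (vertical axis) against 5 marrow samples (horizontal axis), coloured by the role of the gene, with the line of equal signal. Each point is read against the line, since signals of different probe sets are not comparable. Map2 lies farthest above the line, at 10.5 in tumours and 3.10 in marrow, and Stk17b, Trak2, Stradb and Acadl lie below it.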

How the data were processed

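Total RNA of 24 tumours and 5 bone marrow samples was read on 1 Affymetrix mouse expression array each, from 100 ng of RNA, per the labels' protocols. The deposited values are log2 signals made by the authors by RMA with the Partek software, version 6.6, as the submitters' processing notes list. Joint or separate normalization of tumour and marrow arrays is not stated in the sources. Values ran from 1.87 to 14.4, and no arrays held identical values. Control probe sets, 64 of 45101, were left out. Of the 45037 others, 34945 carried 1 gene symbol in the platform annotation, 932 several and 9160 none. Gene order came from RefSeq's gene table, matched by Entrez ID for 34741 probe sets.

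Differences were tested two-sided by lmFit and eBayes of limma 3.58.1 under R 4.3.3, and called means a Benjamini-Hochberg adjusted p under 0.05 over all probe sets tested. Tumours and marrow were each fitted alone for genotype, and all 4 groups together for tissue and for the difference between tissues. Within-gene rows were fitted the same way. The scripts were tested on simulated data. Figures were drawn with matplotlib 3.10.9.

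Named in full are the probe sets called, the 8 members of smallest p in tumours, the 5 within-gene rows of smallest p, all Lancl1 and Casp8 probe sets, the neighbours of Lancl1 and the 4 other genes of smallest p. Roles are represented by their extremes, and tissues by the 6 largest differences in each direction. The marrow probe sets and close promoter pairs were added after their values were seen. Members, roles and marker lists were chosen with earlier results of these data known. Alternatives were trend and robust variance, array weights, a filter at a mean log2 signal of 5, quantile normalization again, median centring, title number series, RNA quality, 1 value per gene and leaving out each sample.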

Additional observations from a re-analysis of the deposited data

Results flagged for a closer look

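In the 7 wild type tumours, the highest or lowest sample was set against the others for every member probe set and Casp8, and in 12 of these groups (10.3%) the gap to its nearest neighbour took a large enough share of the whole range to stand apart. Chance gives about 1 in 20 such groups, and probe sets of 1 gene are not independent.

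Wild type tumour 1 was highest at all 3 probe sets of the kinase gene Stk17b. It stood at 9.35 against 6.90 to 7.81 at 1423452_at (gap of 0.631 of the range), at 6.15 against 3.61 to 4.57 at 1430165_at (0.622) and at 9.43 against 6.86 to 7.56 at 1450997_at (0.729). It was also highest for the fatty acid dehydrogenase Acadl 1448987_at, at 8.30 against 6.81 to 7.18 (0.751). Both genes were higher in marrow than in tumours. Among the wild type tumours the same one had the highest mean of the adipocyte markers, 8.71, and the lowest of the sympathoadrenal ones, 9.02. Its mean of the blood cell markers was 5.75 and that of the T cell markers 4.18. The same means were 5.75 and 4.28 in wild type tumour 5. The part of these cells in the values was not tested.

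Wild type tumour 4 was highest for 3 dim probe sets, Creb1 1421583_at at 2.77 against 2.36 to 2.49 (0.676), Creb1 1452529_a_at at 4.55 against 4.05 to 4.26 (0.568) and Cyp20a1 1443782_x_at at 4.65 against 3.55 to 4.01 (0.577). Wild type tumour 2 was lowest for the replication gene Orc2 1418226_at, at 7.57 against 7.99 to 8.11 (0.774), and for the complex I gene Ndufb3 1416547_at, at 9.74 against 9.92 to 10.06 (0.574). Wild type tumour 6 was lowest for the zinc transporter Slc39a10 1433751_at, at 8.45 against 9.18 to 9.68 (0.595), and highest for Raph1 1456918_at, at 7.09 against 5.71 to 6.23 (0.621). Wild type tumour 7 was highest for Pikfyve 1446974_at, at 5.20 against 4.70 to 4.85 (0.702).

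The genotype difference of Ino80dos 1453354_at was smaller in tumours than in marrow by a tested -0.88 (limma adjusted p = 0.0269), and without deficient marrow 3 it was -0.71 (limma adjusted p = 0.0994). Sex and genotype cannot be told apart in the marrow part of that difference.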

How the results depend on the processing

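The call of the dim Lancl1 probe set kept its direction under every alternative run and stayed past the threshold except where fewer tumours or other units were tested. It was -0.995 in the lower title number series alone, -1.07 in the higher one and -0.42 as the mean of the gene's probe sets, none of them called by limma (adjusted p = 0.9999, 0.0867 and 0.0902). The count called over the array was 0 in those 3 settings and also 0 with the brightest probe set per gene, which leaves the dim one out by construction, and the member count was 0 in each series. The Lancl1 distance was 1.25 in the lower series, where 0 within-gene rows were called over the array and 0 among members. Leaving out each tumour gave -1.10 to -0.96 for the dim probe set and 1.17 to 1.30 for the distance, and 1 call in each count.

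No other member was called between tumour genotypes in any setting, with a lowest limma adjusted p of 0.67 in the higher series. Signs turned in the lower series, without a call, for Coq10b 1428487_s_at, Creb1 1452901_at, Cyp20a1 1430452_at, Inpp1 1442073_at (0.092) and, within genes, Sf3b1 1418562_at (0.064). Leaving out each marrow sample in turn gave 78 to 1269 probe sets called for the tissue dependence of the genotype difference, against 93 with all, and 0 to 5 among members. The count was 1269 once wild type marrow 2 was left out and 159 once deficient marrow 1 was. It gave 1 to 4 within-gene rows in marrow against 2, 7 to 10 probe sets for genotype in marrow against 9, and 28137 to 30833 for tissue against 31676, of which 83 to 89 were members. Hspe1 1422579_at was not called for tissue without wild type marrow 2 (0.39, limma adjusted p = 0.186).

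Where a wild type marrow sample was left out, the lone remaining one was assumed to vary like the other groups. The cause of these changes was not tested. The 46 member probe sets under a mean signal of 5 have compressed differences, and the 5 marrow samples allow no exact permutation p under 0.1. No paired analysis was possible because the labels give no replicate numbers shared between groups.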

Other observations

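Within-gene differences between the tissues, a result added after the data were seen, were far more frequent than those between genotypes. Of the 85 member rows 55 were called between tumours and marrow (limma), against 62.9% of 21067 rows. The largest spread of a member gene's probe sets belonged to Map2, at 6.82, followed by Ankrd44 at 2.41, Acadl at 2.35, Wdr12 at 2.06 and Sf3b1 at 1.73. The median spread was 0.555 over the members and 0.615 over all genes with 2 or more probe sets. Of Lancl1, whose probe sets moved apart between genotypes in tumours, the tissue differences were 1.74 and 1.72.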
